A study of Mus musculus with 6 samples.

Results

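Plasmacytoid dendritic cells (pDC) were examined in single-cell RNA sequencing of the injured mouse rotator cuff enthesis, the zone where the supraspinatus tendon joins the bone. They were selected on measured counts: droplet barcodes passed quality control with 1000 or more UMIs (unique molecular identifiers, each standing for 1 captured mRNA molecule), 200 or more genes and no more than 10% of UMIs from mitochondrial genes, and of these barcodes pDC held 3 or more Siglech and 2 or more Bst2 UMIs. Barcodes with more than 1 Cd79a UMI, more than 2 UMIs over C1qa, C1qb and C1qc, or 0.5% or more of their UMIs from Col1a1, Col1a2 and Col3a1 were left out. This gave 409 pDC among 85339 quality-passing barcodes. Because Siglech and Bst2 counts chose the cells, the levels of both genes, and every contrast of pDC with other cells of the same libraries, are given as a description without a test.

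The wild-type group held 3 libraries from C57BL/6 mice, and the Nlrp3-/- group held 3 libraries from a global Nlrp3 knockout line supplied by Cyagen, so that Nlrp3 was missing from every cell type and not from pDC alone. All mice were adults that had undergone the same surgery: the supraspinatus tendon was cut close to the bone and sutured back through bone tunnels. Entheses were collected at 7 days postinjury (dpi) and pooled for each library, and the number and sex of the mice in a pool were not given in the sources used here. No uninjured library was analysed here. The genotype field of Nlrp3-/- replicates 2 and 3 named Nlrp4 and Nlrp5, while their titles gave an Nlrp3 knockout, and the titles were used. The libraries are the replicates throughout (n = 3 and n = 3), and the p-values measure only the spread between these pools, which may be technical.

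Plasmacytoid dendritic cells are rare circulating cells of bone marrow origin that sense viral and self nucleic acids in endosomes through Toll-like receptors and can release large amounts of type I interferon. The E protein TCF4 sets and keeps their identity, with IRF8, RUNX2, SPIB and BCL11A beside it. In the mouse they are recognised by Siglec-H and BST2 on their surface, and CCR9 marks cells that have reached full maturity. Conventional dendritic cells, by contrast, are marked by ZBTB46 and specialise in presenting antigen to T cells.

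The libraries held between 97042713 and 134901999 UMIs over all listed barcodes and between 9903 and 22048 quality-passing barcodes. Nlrp3-/- replicate 1 stood apart, with the most quality-passing barcodes, the lowest median depth among them (2069 UMIs against 4874 to 7421 in the other libraries) and 38.4% of barcodes in a gate of collagen-rich mesenchymal cells (8.65% to 23.3% elsewhere). Its pDC were closer to the others in depth, with a median of 3362 UMIs against 3793 to 4656. No pDC barcode was shared by any pair of libraries, although 27 to 95 quality-passing barcodes were shared per pair. Of the 409 pDC, 30 carried RNA of another cell type, defined as over 1% of UMIs from S100a8 and S100a9 of neutrophils (26 cells), over 1% from hemoglobin genes (3 cells), or any UMI of selected T or B cell genes (1 and 2 cells), with some cells meeting more than 1 criterion. Macrophage, mesenchymal and endothelial RNA did not enter this definition. In addition, 35 pDC held more than 10000 UMIs, the largest 82151. No doublet caller was run.

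Around the threshold of 3 Siglech UMIs, 88 members sat at exactly 3, while 79 barcodes that met every other criterion held 2 and another 93 held 1. No barcode was lost on Bst2. Exclusions removed 37 barcodes that met both marker criteria: 8 on Cd79a, 9 on complement C1q and 21 on fibrillar collagen, with 1 of them failing on more than 1 criterion. Median Siglech counts per pDC ranged from 4 to 6 UMIs over the libraries and median Bst2 counts from 17 to 26.

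pDC were found in every library, but their number varied widely within each genotype. Wild-type replicates 1, 2 and 3 held 85, 52 and 82 pDC, which was 0.673%, 0.335% and 0.828% of quality-passing barcodes. Nlrp3-/- replicates 1, 2 and 3 held 25, 132 and 33 pDC, which was 0.113%, 1.12% and 0.246%. The highest and the lowest share both fell in the Nlrp3-/- group, so the groups overlapped fully. Exact 95% binomial intervals, which cover counting error only, ran from 0.0734% to 0.167% in Nlrp3-/- replicate 1 and from 0.935% to 1.32% in Nlrp3-/- replicate 2. The shares averaged 0.612% ± 0.252 (SD, n = 3) in wild-type controls and 0.492% ± 0.545 (SD, n = 3) in Nlrp3-/- mice, a log2 ratio of -0.31 that did not pass the two-sided exact permutation test (p = 0.8, smallest possible 0.1). The log2 ratio was 0.15 without Nlrp3-/- replicate 1 and -1.77 without Nlrp3-/- replicate 2.

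**Figure D1:**
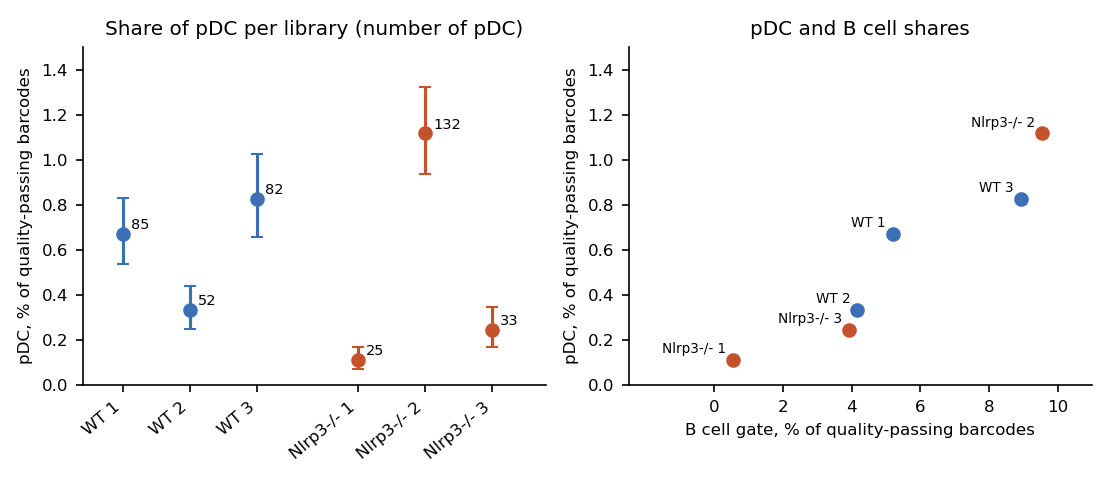
Left, pDC as a percentage of quality-passing barcodes in each library, with exact 95% binomial intervals and the number of pDC beside each point. Right, the same percentage against the percentage of barcodes in the B cell gate; the 6 libraries keep the same order on both axes, from Nlrp3-/- replicate 1 to Nlrp3-/- replicate 2.

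The share of pDC followed the share of B cells from library to library. B cells, taken by a gate on Cd79a and further B cell genes, made up 5.20%, 4.16% and 8.93% of barcodes in wild-type replicates 1 to 3 and 0.544%, 9.53% and 3.92% in Nlrp3-/- replicates 1 to 3. Across the 6 libraries, Pearson's r was 0.944 and Spearman's rho was 1 (exact permutation p = 0.00278 for each, 0.0167 after Benjamini-Hochberg adjustment over 6 relations). Without the libraries farthest from the median B cell share, Nlrp3-/- replicate 2 and wild-type replicate 3, r was 0.825. The 6 libraries held from 6.27 pDC per 100 B cells in Nlrp3-/- replicate 3 to 20.8 in Nlrp3-/- replicate 1. The relations with conventional dendritic cells, macrophages, neutrophils, T cells and mesenchymal cells did not pass (adjusted exact permutation p from 0.175 to 0.803). This relation was noticed after the shares had been seen, both shares have the same denominator, and each genotype alone has too few libraries for a correlation.

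The label was checked on Ccr9 and Tcf4, which the gate did not use. The levels below are CPM, the UMIs of a gene per 1000000 UMIs summed over the pDC of a library; since each mRNA is counted once from its 3′ end, they were not divided by gene length. Ccr9, the receptor for the gut chemokine CCL25, stood at 481, 620, 550, 657, 480 and 505 CPM in wild-type replicates 1 to 3 and Nlrp3-/- replicates 1 to 3. Its mean was at most 3.83 CPM in the gates for conventional dendritic cells, B cells, macrophages, neutrophils, T cells and mesenchymal cells. Tcf4 stood at 1021, 1076, 1805, 1704, 2213 and 1850 CPM, and its highest level in any library of any gate was 274.9 CPM. In every library, pDC were above all gates for both genes.

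Markers of neighbouring lymphoid and dendritic cell types were in part absent from pDC and in part present. Xcr1 of type 1 conventional dendritic cells had 0 UMIs, Batf3 had 6 and Zbtb46 had 7 among 2248701 pDC UMIs. The 13 conventional dendritic cell markers together reached 197 to 211 CPM in wild-type pDC and 164 to 302 CPM in Nlrp3-/- pDC, above the 143 CPM of all other barcodes and below the 1396 CPM of the conventional dendritic cell gate. That gate was itself chosen in part on Xcr1, Clec9a and Cd209a of this list. Clec9a and Cd209a of that list averaged more than 10 times their level in all other barcodes. The B cell genes Pax5 and Ms4a1 had 0 UMIs, and the 12 B cell markers summed to 96.6 to 295 CPM in pDC libraries against 487 CPM in all other barcodes. The T cell genes Cd3e and Trac also had 0 UMIs, and the 14 T and NK cell markers summed to 27.6 to 176 CPM against 247 CPM. RNA of other cell types was present at higher levels. The summed neutrophil markers ran from 9008 to 42765 CPM in wild-type and from 7844 to 12059 CPM in Nlrp3-/- pDC, against 50633 CPM in the barcodes of at most 100 UMIs that hold mostly free RNA. Macrophage markers summed to 1188 to 3134 CPM in wild-type and 623 to 1990 CPM in Nlrp3-/- pDC, against 14029 CPM in those barcodes. In Nlrp3-/- replicate 2 erythroid markers reached 4557 CPM, and in Nlrp3-/- replicates 2 and 3 mesenchymal markers reached 1404 and 1654 CPM and endothelial markers 1032 and 1149 CPM.

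Of 34 pDC identity genes other than Siglech and Bst2, 20 averaged more than 10 times their level in all other barcodes, and 21 had their lowest pDC library above the highest library of every gate. The lineage factors Irf8 and Runx2 averaged 1689 and 697 CPM, against at most 306 and 57.5 CPM on average in any of the 6 gates. Spib and Bcl11a averaged 256 and 446 CPM and also had sizeable levels in the B cell gate, at 129 and 150 CPM. Zeb2, which represses alternative lineage factors, averaged 248 CPM and was higher in macrophages, at 404 CPM.

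Genes outside the classical markers also separated pDC from the gates. Among 3217 genes with a mean of at least 50 CPM in pDC, 151 had their lowest pDC library above every library of every gate, and 12 did so at 5 times or more. Among these 12 were Bst2, Ccr9, Klk1, Cox6a2, Pacsin1, Cd300c, Sh3bgr, Paqr5, Lrp8, Dll4 and Atp2a1. Siglech was 0 in every gate because the gates were defined that way, so it has no such ratio. Klk1, a tissue kallikrein, stood at 365, 356 and 248 CPM in wild-type and 173, 177 and 118 CPM in Nlrp3-/- pDC, and its mean was at most 0.0366 CPM in any gate. Cox6a2, a subunit of cytochrome c oxidase known from heart and skeletal muscle, averaged 1284 CPM against at most 7.08 CPM. Sh3bgr averaged 127 CPM, and Atp2a1, the calcium pump of fast skeletal muscle, averaged 72.8 CPM. Lrp8, a receptor for reelin and apolipoprotein E, averaged 340 CPM, Pacsin1, an adaptor of endocytosis known from neurons, 169 CPM, and Paqr5, a membrane progesterone receptor, 91.9 CPM. Dll4, a ligand of Notch, averaged 68.9 CPM, with libraries from 43.4 to 100.03 CPM.

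**Figure D2:**
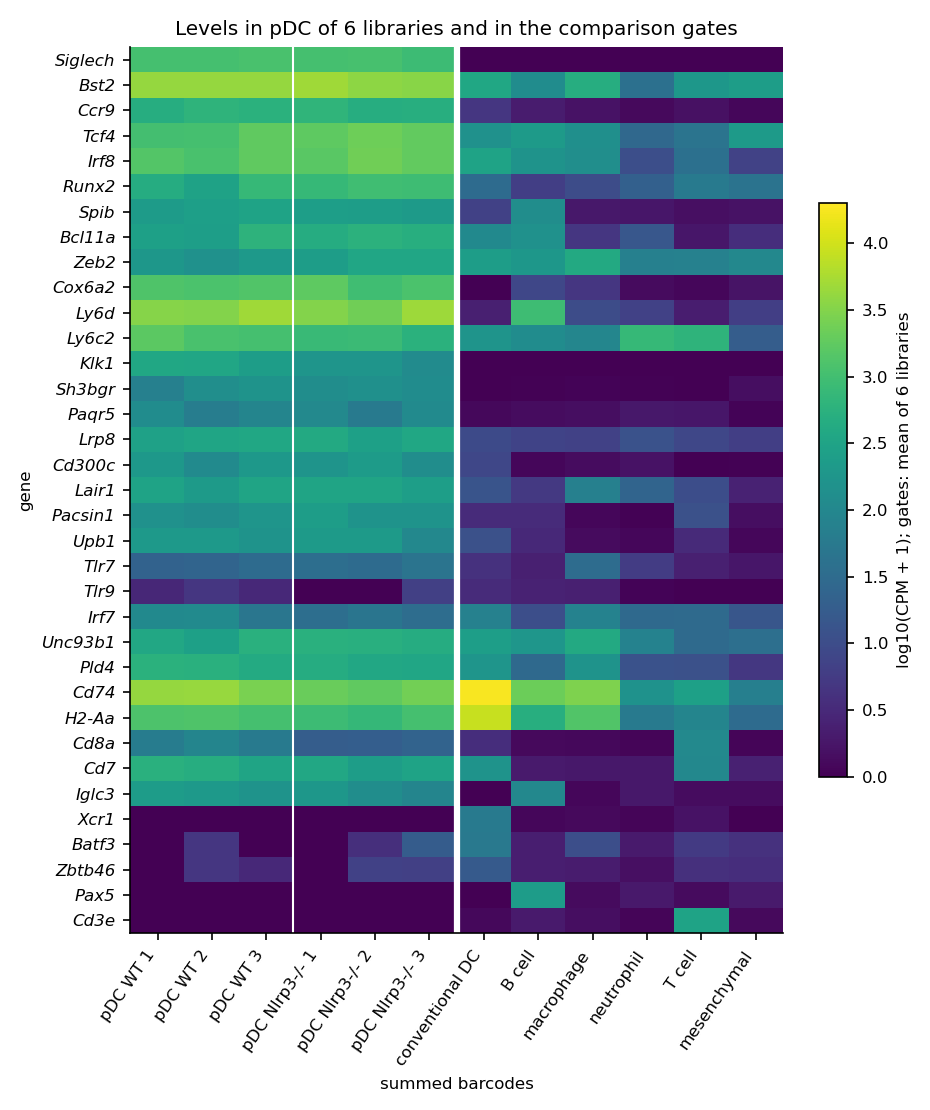
Levels of 35 genes, as log10(CPM + 1), in the summed pDC of each library (the 6 columns on the left, wild-type then Nlrp3-/-) and as the mean of 6 libraries in the gates for other cell types (right). Siglech is 0 in the gates because they were defined that way; Ccr9, Cox6a2, Klk1, Sh3bgr and Cd300c are brightest in the pDC columns, whereas Cd74 and H2-Aa are brightest in conventional dendritic cells.

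The promoters of 4 of these genes are shown because E proteins such as TCF4 bind short CANNTG elements, of which CAGGTG is a high-affinity form, and interferon regulatory factors bind repeats of GAAA separated by any 2 bases. The sequences are RefSeq windows on GRCm38.p6, from 250 bases before to 50 after the start site, written 5′ to 3′ along the gene, with matches to either motif on either strand in capitals (CACCTG is CAGGTG read on the other strand).
Siglech promoter, GRCm38.p6, chr7:55767934-55768233, plus strand: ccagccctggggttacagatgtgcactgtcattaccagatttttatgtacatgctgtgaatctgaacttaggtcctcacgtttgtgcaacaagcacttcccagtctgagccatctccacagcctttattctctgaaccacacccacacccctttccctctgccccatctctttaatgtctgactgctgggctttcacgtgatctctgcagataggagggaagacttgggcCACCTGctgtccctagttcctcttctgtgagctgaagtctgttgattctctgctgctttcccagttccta
Ccr9 promoter, GRCm38.p6, chr9:123766961-123767260, plus strand: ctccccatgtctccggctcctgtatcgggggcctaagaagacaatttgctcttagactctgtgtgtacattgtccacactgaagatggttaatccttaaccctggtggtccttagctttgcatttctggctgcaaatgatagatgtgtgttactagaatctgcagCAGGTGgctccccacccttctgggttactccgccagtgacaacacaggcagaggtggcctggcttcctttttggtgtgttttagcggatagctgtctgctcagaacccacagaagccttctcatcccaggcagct
Klk1 promoter, GRCm38.p6, chr7:44225110-44225409, plus strand: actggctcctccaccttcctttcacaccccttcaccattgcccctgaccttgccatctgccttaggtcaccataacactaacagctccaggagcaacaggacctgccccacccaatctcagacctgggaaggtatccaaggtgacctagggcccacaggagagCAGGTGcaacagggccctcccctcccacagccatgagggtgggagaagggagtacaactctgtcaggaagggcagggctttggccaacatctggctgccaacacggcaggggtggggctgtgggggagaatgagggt
Bst2 promoter, GRCm38.p6, chr8:71537423-71537722, minus strand: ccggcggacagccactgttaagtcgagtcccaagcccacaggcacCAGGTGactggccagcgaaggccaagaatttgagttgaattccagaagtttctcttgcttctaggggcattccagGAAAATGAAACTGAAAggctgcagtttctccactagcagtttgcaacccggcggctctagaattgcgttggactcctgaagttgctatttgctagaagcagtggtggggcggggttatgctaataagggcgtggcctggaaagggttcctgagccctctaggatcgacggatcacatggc

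In these windows the CAGGTG match began 20 bases upstream of the start site in Siglech, 85 in Ccr9, 87 in Klk1 and 205 in Bst2. The Bst2 window also held 2 overlapping matches to the GAAA repeat, GAAAATGAAA and GAAACTGAAA, which began 130 and 124 bases upstream. The motif count took 12 genes: those named above as far above every gate, and Siglech, which was added although it has no such ratio. Of these 12 genes, 10 had at least 1 window. CAGGTG was held on either strand in 1 or more windows by 7 of the 10, Siglech and Bst2 among them. Counted by window this was 8 of 12 (66.7%), and 6 of 10 without Siglech and Bst2, whose counts chose the cells, with Lrp8 giving 2 of these. Over all windows searched, which did not cover every gene, the motif was in 6640 of 32851 (20.2%). These shares are a description with no test. The GAAA repeat, searched on both strands, was found in 2 of the 12 windows, those of Bst2 and Cd300c (1 of 10 without Siglech and Bst2), and in 3.44% of all windows searched. A match describes the letters only and was not tested as a binding site.

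To compare cells at equal depth, each barcode was thinned to 1000 UMIs, and the share of cells that kept at least 1 UMI of a gene was taken. Bst2 was seen in 96.6% of pDC, Ly6d, Irf8 and Tcf4 in 80.7% each, Siglech in 72.4%, Cox6a2 in 66.0% and Runx2 in 52.1%. Ccr9 was seen in 38.9% of pDC, ranging from 30.6% to 43.9% over the libraries, and in at most 0.272% of any other gate at the same depth. Klk1 was seen in 18.3% of pDC and in at most 0.00581% of the other gates, and Sh3bgr in 14.9%. Before thinning, 75.8% of pDC held a Ccr9 UMI, so a cell without one at 1000 UMIs is not shown to lack the transcript.

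The endosomal sensing machinery was present at uneven levels. Tlr7, the receptor for single-stranded RNA, stood at 21.7, 23.0, 31.3, 34.6, 31.1 and 44.9 CPM over the 6 libraries, close to its mean of 31.7 CPM in macrophages. Tlr9, the receptor for unmethylated DNA, had only 4 UMIs in all pDC, and Tlr8 had 0, which allows at most 3 UMIs in 2248701. Tlr12 averaged 22.4 CPM. Unc93b1, the chaperone that carries these receptors to endosomes, averaged 450 CPM, and Pld4, an endosomal exonuclease that trims their ligands, 452 CPM. Irf7, the factor that amplifies interferon transcription, stood at 110, 111 and 47.9 CPM in wild-type and 34.6, 45.3 and 33.6 CPM in Nlrp3-/- pDC. None of 13 tested sensing genes passed the genotype test, and Irf7 stood at -1.26 ± 0.390 (SE) on the log2 scale (adjusted p = 0.205 by edgeR).

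No interferon ligand transcript was captured in pDC. All 21 ligand genes measured, which were the alpha interferons, Ifnb1, Ifne, Ifnk, Ifnz, Ifnl2, Ifnl3 and Ifng, had 0 UMIs in all 6 libraries. A ligand transcript was therefore not detectable at this depth in cells sampled at 7 dpi. Receptor chains were detected, with Ifnar2 at 326 CPM and Ifnar1 at 122 CPM on average. The list of interferon genes and receptors summed to 452 to 591 CPM in wild-type and 518 to 588 CPM in Nlrp3-/- pDC, against 304 CPM in the barcodes of at most 100 UMIs. The part of free RNA in these levels was not tested. Interferon-stimulated genes were mostly low: Isg15 averaged 39.3 CPM against 142 CPM in conventional dendritic cells, and Ifit1, Ifit3 and Oas2 averaged 2.85, 2.51 and 0.638 CPM. Among them Ifi27l2a, encoding a small mitochondrial protein, was the most abundant apart from Bst2.

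Class II antigen presentation genes averaged below their level in conventional dendritic cells. Cd74, H2-Aa and H2-Ab1 entered the gate that chose those cells, so their level there was in part set by the gate. Cd74, the invariant chain, averaged 2925 CPM in pDC and 17794 CPM in conventional dendritic cells, and the class II genes H2-Aa and H2-Ab1 averaged 1058 and 821 CPM against 8552 and 7935 CPM. The costimulatory genes Cd86, Cd80 and Cd40 averaged 8.43, 3.96 and 2.15 CPM. Of the class I genes, H2-K1 averaged 1821 CPM in pDC and 1359 CPM in conventional dendritic cells, H2-D1 1455 and 1603 CPM, and their light chain B2m 1538 and 1332 CPM.

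Surface molecules for movement included Ccr9, described above, and Selplg. Selplg, encoding the ligand of P-selectin, averaged 424 CPM. Cxcr4, the receptor that holds cells in marrow, averaged 215 CPM, with libraries from 76.6 to 363 CPM. Ccr7, needed for migration of activated dendritic cells to lymph nodes, had 7 UMIs in all. Among receptors for growth factors, Flt3 averaged 121 CPM and Il7r 239.6 CPM.

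pDC also held lymphoid transcripts. Ly6d averaged 3581 CPM and was seen after thinning in 80.7% of pDC and 51.9% of B cells. Dntt, encoding the terminal transferase of lymphoid precursors, averaged 133 CPM in pDC and 149 CPM in B cells, and Ighm averaged 597 CPM against 2087 CPM. Iglc3, a lambda light chain constant gene, averaged 168 CPM in pDC and 101 CPM in B cells, whereas Igkc was far lower in pDC, at 123 against 28670 CPM. Iglc2 and Iglc3 are near-identical copies, so the assignment of reads between them is uncertain. Rag1 had 8 UMIs and Cd79b, a B cell receptor subunit, averaged 39.6 CPM against 893 CPM in B cells. On average, then, pDC were above B cells for Iglc3 and below them for Igkc and Cd79b.

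The next comparison asked whether pDC of Nlrp3-/- mice differed from those of wild-type controls in cell features. Ly6c2, a surface marker of a pDC subset and of monocytes, showed the largest difference in share. After thinning, 74.1%, 57.7% and 62.2% of wild-type pDC and 44.0%, 46.2% and 36.4% of Nlrp3-/- pDC held a Ly6c2 UMI, and the groups did not overlap. The means were 64.7% ± 8.49 and 42.2% ± 5.17 (SD, n = 3 each; exact permutation p = 0.1, the smallest possible, adjusted 0.4 over 8 features). The summed level of Ly6c2 went the same way, from 1616, 1149 and 1094 CPM in wild-type to 813, 854 and 549 CPM in Nlrp3-/- pDC, a log2 difference of -0.94 ± 0.238 (SE) that did not pass (adjusted p = 0.110 by edgeR). In neutrophils, which also express it, 41.7% of barcodes held a Ly6c2 UMI.

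With 3 libraries a group the smallest possible p is 0.1, so none of the 8 features could pass. pDC with at least 2 UMIs of cell cycle genes after thinning, called cycle-positive here, made up 11.8%, 9.62% and 24.4% in wild-type and 8%, 15.9% and 24.2% in Nlrp3-/- libraries. Their means of 15.3% ± 7.98 and 16.1% ± 8.12 (SD, n = 3 each) were within the spread of either group (exact permutation p = 1), and the difference of 0.79 percentage points turned to -8.31 on unthinned counts. The cut is a range and not a cell state: 15 of the 66 cycle-positive pDC held exactly 2 such UMIs after thinning and 69 further pDC held 1, while 12 of the 66 had at most 5 before thinning and 15 pDC that were not called had more than 5. The share with Ccr9 was 36.4% ± 5.14 in wild-type and 40.1% ± 3.79 in Nlrp3-/- pDC (exact permutation p = 0.5, adjusted 0.8), and its difference of 3.67 percentage points turned to -3.87 on unthinned counts. Cd8a was seen in 8.24%, 5.77% and 8.54% of wild-type and in 0%, 1.52% and 6.06% of Nlrp3-/- pDC (exact permutation p = 0.2, adjusted 0.4). For Cd4 the shares were 8.82% ± 2.64 and 3.28% ± 3.42 (exact permutation p = 0.2, adjusted 0.4). Ly6d was seen in 81.7% ± 4.57 and 80.8% ± 2.82 of pDC (exact permutation p = 0.8, adjusted 1), and Klra17, a receptor gene of the Ly49 family, had mean shares of 6.94% and 6.45% (exact permutation p = 0.9, adjusted 1). Cx3cr1, a marker of transitional dendritic cells, remained in only 4 pDC. All of them were wild-type and every wild-type library held some, so the groups did not overlap here either.

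Genes were then compared between genotypes on UMIs summed per library. Of 5157 genes tested, 31 (0.601%) differed at an edgeR adjusted p under 0.05, 6 higher in Nlrp3-/- pDC (0.116%) and 25 lower (0.485%). A further view of the background is that 917 genes (17.8%) had groups that did not overlap and 668 (13.0%) had an unadjusted p under 0.05. The count rested on single libraries: it was 13 without wild-type replicate 1, 251 without wild-type replicate 3 and 9 without Nlrp3-/- replicate 2. Without the pDC that carried RNA of other cells it was 11.

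The targeted gene checked the labels. Nlrp3 (chr11:59541568-59566956), the sensor of the inflammasome, stood at 51.3, 49.8 and 60.4 CPM in wild-type pDC and had no UMI in any Nlrp3-/- library, at least 3.43-fold lower by a floor of 3 UMIs per library (edgeR adjusted p = 0.00104). The 68 Nlrp3 UMIs came from 22 wild-type pDC. In the wild-type libraries Nlrp3 averaged 379 CPM in neutrophils and 144 CPM in barcodes of at most 100 UMIs, from 93.6 to 174 CPM, so that every wild-type pDC level lay below that of free RNA in the same library. The Nlrp3 UMIs of pDC, up to 13 of them in 1 cell, were used as a check of the library labels. Whether these UMIs came from free RNA, from another cell in the same barcode or from pDC was not tested. Without the pDC that carried RNA of other cells, Nlrp3 was too low to be tested.

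Sex was fully confounded with genotype. The X-linked RNA Xist stood at 1.97, 0 and 0 CPM in wild-type pDC and at 2395, 2799 and 2248 CPM in Nlrp3-/- pDC, while the Y-linked Ddx3y stood at 86.7, 65.1 and 79.2 CPM in wild-type and 0 CPM in every Nlrp3-/- library. The effects of sex and of Nlrp3 loss therefore cannot be told apart in any comparison of the genotypes, above or below. This includes the pDC share and the cell features such as Ly6c2.

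Of the 31 genes, 2 lie on X, 1 on Y, and 3 besides Nlrp3 itself lie within 20 Mb of Nlrp3 on chromosome 11, out of 172 genes tested there (1.74%, against 0.601% of all genes tested). Hist3h2ba (chr11:58948920-58949533), a histone H2B gene, stood at 82.8, 42.1 and 56.3 CPM in wild-type and without a UMI in the 3 Nlrp3-/- libraries, which was lower by at least 3.85-fold by the same floor (edgeR adjusted p = 0.00158). Rnf187 (chr11:58932288-58938916), a ubiquitin ligase gene beside it, stood at 375, 310 and 331 CPM against 86.5, 52.4 and 84.1 CPM, and fell by 2.46 ± 0.269 (SE) on the log2 scale (edgeR adjusted p = 0.000365). Uqcrq (chr11:53427922-53430831), a subunit of respiratory complex III, stood at 483, 571 and 302 CPM against 225, 144 and 174 CPM, and fell by 1.52 ± 0.295 (SE; edgeR adjusted p = 0.0339). All 3 also passed without the pDC that carried RNA of other cells. Over all alternatives Rnf187 passed in 17 of 17, Hist3h2ba in 13 of 14 (edgeR adjusted p up to 0.0906) and Uqcrq in 11 of 17 (up to 0.336). The part of closeness to the targeted locus in these differences was not tested.

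Cxcl2 (chr5:90903871-90905938) encodes a chemokine that attracts neutrophils. Cxcl2 stood at 735, 1245 and 711 CPM in wild-type and 60.5, 22.6 and 22.4 CPM in Nlrp3-/- pDC, with no overlap, and fell by 5.08 ± 0.394 (SE) on the log2 scale (edgeR adjusted p = 1.03e-05). It passed in 17 of 17 alternative settings (edgeR or DESeq2 adjusted p from 8.94e-57 to 0.000976), among them the fit without pDC that carried RNA of other cells, where it fell by 4.0. A Cxcl2 UMI was present in 59 wild-type and 23 Nlrp3-/- pDC. The counts were concentrated: single wild-type cells held up to 171 UMIs, whereas no Nlrp3-/- cell held more than 2. Neutrophils averaged 4395 CPM of Cxcl2, macrophages 2263 CPM and barcodes of at most 100 UMIs 1998 CPM. Macrophage RNA did not enter the definition of RNA of other cells. The part of neutrophil, macrophage or free RNA in the difference was not tested.

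A further 8 lowered genes, set together here after their values were seen, averaged more in neutrophils than in any pDC library. Cd14, the co-receptor for lipopolysaccharide, stood at 78.8, 134 and 81.3 CPM in wild-type and 17.3, 15.6 and 22.4 CPM in Nlrp3-/- pDC (log2 fold change -2.58 ± 0.390, SE; edgeR adjusted p = 0.00517). The chemokine Ccl3, the nicotinic acid receptor Hcar2, the cystine transporter Slc7a11, the lipolysis inhibitor G0s2, the neutrophil resistin-like gene Retnlg and Ifitm6 fell by 2.21 to 3.62 on the log2 scale. These 6 genes averaged from 359 to 8230 CPM in neutrophils. Cd14 averaged 533 CPM there and 426 CPM in macrophages. Neither the 6 genes nor Cd14 could be tested without the pDC that carried RNA of other cells. The edgeR adjusted p of the 6 genes lay between 0.0271 and 0.0471, and over the alternatives that could test them it reached 0.382 for Ccl3, 0.121 for Hcar2, 0.415 for Slc7a11, 0.120 for G0s2, 0.182 for Retnlg, 0.382 for Ifitm6 and 0.289 for Cd14. The neutrophil marker list holds G0s2 and Retnlg from this set, so its counts are not independent of the set. Of its 11 tested genes, 10 had negative values and 5 had groups that did not overlap, against 17.8% of all genes tested, and the median was -1.50. The summed level of the list, given above, overlapped between the groups and was highest in wild-type replicate 1. The part of neutrophil or macrophage RNA in these differences was not tested. Ifitm1 fell by 3.77 (edgeR adjusted p = 0.0218), with an adjusted p of 0.114 without the pDC that carried RNA of other cells and from 1.56e-20 to 0.336 over 15 alternatives. When each library was left out, the log2 fold change ran from -5.30 to -2.69 for Ifitm1, from -5.90 to -2.67 for Retnlg and from -3.96 to -2.01 for G0s2, the widest ranges of this set.

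Another 5 lowered genes averaged less in neutrophils than in any wild-type pDC library, but not all were low in other cells: Ifi27l2a averaged 791 CPM in macrophages and 491 CPM in barcodes of at most 100 UMIs, and Lgals1 averaged 1899 and 2060 CPM there. The part of such RNA was not tested. Ly6a, the surface antigen Sca-1, stood at 1039, 843 and 592 CPM in wild-type and 268, 205 and 449 CPM in Nlrp3-/- pDC and fell by 1.61 ± 0.311 (SE) on the log2 scale (edgeR adjusted p = 0.0339), whereas neutrophils averaged 21.7 CPM. Ifi27l2a, an interferon-stimulated gene, stood at 1591, 682 and 594 CPM against 277, 326 and 151 CPM and fell by 2.06 ± 0.385 (edgeR adjusted p = 0.0314). Lgals1, encoding galectin-1, stood at 2894, 2198 and 1894 CPM against 1384, 1220 and 1267 CPM and fell by 1.00 ± 0.209 (edgeR adjusted p = 0.0471). Cd8a, which pDC can carry as a CD8αα homodimer, stood at 63.1, 88.1 and 58.3 CPM against 17.3, 18.4 and 22.4 CPM and fell by 1.96 ± 0.380 (edgeR adjusted p = 0.0339), with 0.126 CPM in neutrophils. Each of these 4 had groups that did not overlap, and each missed the threshold without the pDC that carried RNA of other cells (edgeR adjusted p 0.0533 for Ly6a, 0.0632 for Ifi27l2a, 0.101 for Lgals1 and 0.111 for Cd8a), at log2 fold changes of -1.45, -1.94, -0.91 and -1.76. Over all alternatives their adjusted p ran up to 0.336, 0.179, 0.336 and 0.372. Adgrg5, an adhesion G protein-coupled receptor, stood at 37.5, 34.5 and 47.9 CPM against 0, 1.42 and 0 CPM and fell by 5.06 ± 0.712 (edgeR adjusted p = 0.00253), and it passed in all 11 alternatives that could test it.

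The other lowered genes were Tpm3-rs7 (by 5.32), the galectin gene Lgals3 (by 2.04), the transcription factor Cebpb (by 1.05) and the unnamed transcripts Gm42031, Gm43305 and Gm49980 (by 4.44, 2.26 and 1.58). Tpm3-rs7 is a copy of a tropomyosin gene, so the assignment of its reads is uncertain. Lgals3 and Cebpb averaged 897 and 1086 CPM in neutrophils and 3507 and 783 CPM in macrophages, more than in any pDC library. The part of such RNA was not tested for them, and each passed in 8 of 17 alternatives. Without the pDC that carried RNA of other cells, Lgals3, Cebpb and Gm49980 missed the threshold (edgeR adjusted p = 0.0831, 0.101 and 0.0644, reaching 0.299, 0.414 and 0.299 over all alternatives). Higher in Nlrp3-/- pDC, besides Xist and Tsix, its antisense RNA, were Elane, Ctsg, Igfbp4 and AC149090.1. AC149090.1 missed the threshold without those cells (edgeR adjusted p = 0.0506, up to 0.336 over all alternatives), and Elane and Ctsg could not be tested there. Elane and Ctsg, which encode granule proteases of neutrophil precursors, rested on few cells: Elane stood at 15.8, 7.66 and 12.5 CPM in wild-type and 3217, 1131 and 28.0 CPM in Nlrp3-/- pDC, and 53.9% of its UMIs lay in 1 cell. Elane passed in 10 of 12 alternatives (edgeR or DESeq2 adjusted p up to 0.544) and Ctsg in 6 of 11 (up to 0.333). The groups overlapped for Ctsg. Igfbp4, a binding protein of insulin-like growth factors, stood at 17.7, 53.6 and 70.9 CPM against 156, 170 and 157 CPM (log2 fold change 1.69, edgeR adjusted p = 0.0471), but 1 cell held 39.9% of its UMIs, and without members over 10000 UMIs the log2 fold change was 0.52 with an edgeR adjusted p of 0.650 (2.94e-05 to 0.650 over 14 alternatives).

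**Figure D3:**
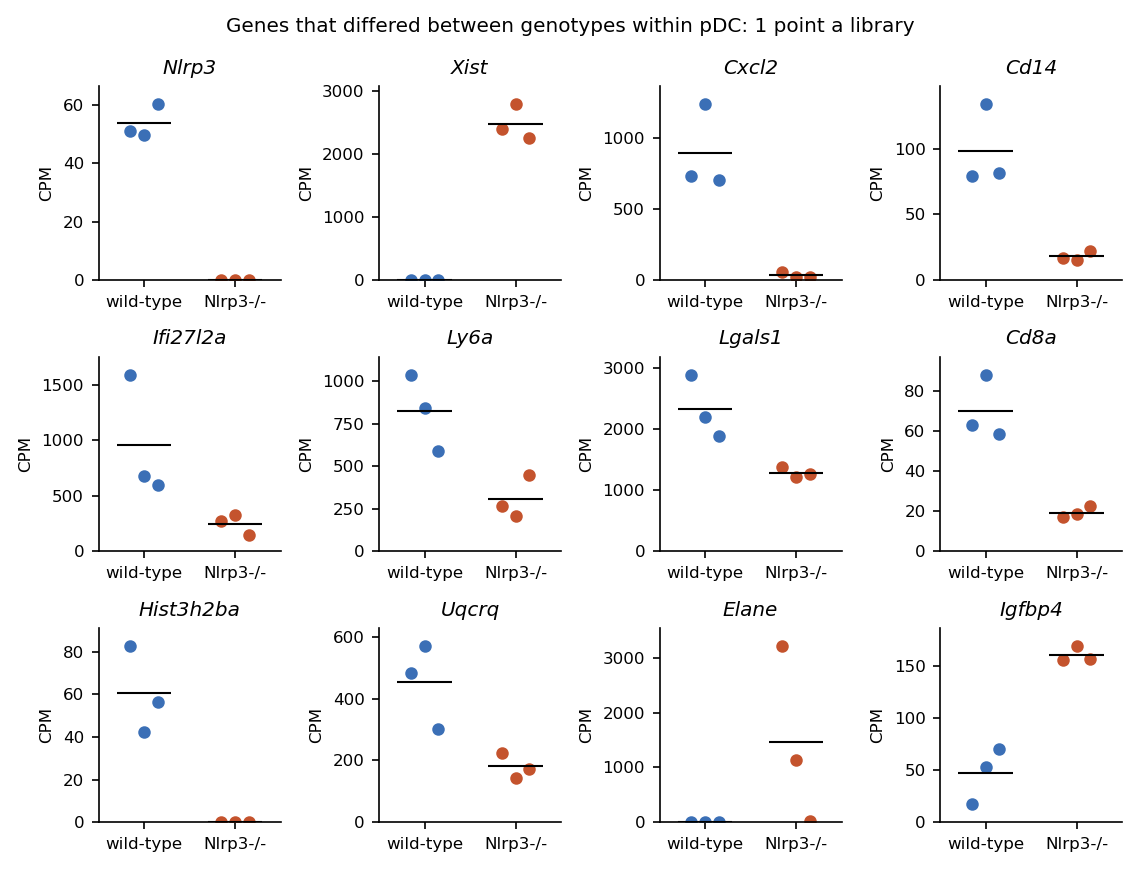
CPM of 12 genes past the edgeR threshold in the summed pDC of each library, with a bar at the mean of 3 libraries. For Cxcl2, Cd14, Ifi27l2a, Ly6a, Lgals1 and Cd8a every wild-type point lies above every Nlrp3-/- point; for Elane 2 of the 3 Nlrp3-/- points carry the difference.

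By functional list, few genes passed. Siglech and Bst2, whose counts chose the cells, were left out of these counts, and the share of all tested genes that passed was 0.601%. None of 33 tested identity genes passed (14 with a positive and 19 with a negative log2 fold change, median -0.09, against a median of 0.03 over all genes tested). Klk1 came closest, at -1.18 ± 0.260 (SE; edgeR adjusted p = 0.0750). Of 17 tested transcription factor genes 0 passed, 13 had positive values and the median was 0.30; the log2 fold changes of Tcf4, Runx2 and Zeb2 were 0.45, 0.68 and 0.69 (adjusted p = 0.396, 0.280 and 0.211 by edgeR). In the antigen presentation list 0 of 14 passed, 13 were negative and the median was -0.53. Cd74 stood at 4147, 4320 and 2757 CPM in wild-type and 2110, 1786 and 2428 CPM in Nlrp3-/- pDC (log2 fold change -0.98 ± 0.220, SE; edgeR adjusted p = 0.0753).

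Of 11 tested interferon-stimulated genes only Ifi27l2a passed, with 5 positive and 6 negative values and a median of -0.23. In the lymphoid list Cd8a passed, 1 of 14, against 0.601% of all genes tested, and Cd8b1, its partner chain, stood at -1.69 (adjusted p = 0.0895 by edgeR). For regulatory surface receptors and their adaptors 0 of 15 passed, with 12 negative values and a median of -0.17, and Tyrobp, the adaptor through which Siglec-H signals, stood at -0.96 (edgeR adjusted p = 0.136). None passed among 15 homing genes, 15 cytokine receptors, 24 genes of the secretory pathway or 20 cell cycle genes, whose medians were 0.10, -0.07, -0.02 and 0.49. Of 13 transitional dendritic cell genes and 21 immediate-early genes 0 passed, at medians of -0.18 and -0.12. Apart from Nlrp3, the inflammasome panel had 3 tested genes and no call, and Il1b, encoding interleukin-1β, stood at 179, 280 and 215 CPM in wild-type and 0, 29.7 and 174 CPM in Nlrp3-/- pDC (log2 fold change -1.97, edgeR adjusted p = 0.183).

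Marker lists of other cells gave the following. Of 11 tested neutrophil markers Elane was higher and G0s2 and Retnlg were lower, and of 6 macrophage markers Cd14 was lower, with a median of -0.66. The 6 tested mesenchymal and 6 tested endothelial markers all had positive values, with medians of 0.86 and 1.37 and no call. Their summed levels ran up to 1654 and 1149 CPM in Nlrp3-/- pDC against 628 and 342 CPM in wild-type pDC. In Nlrp3-/- replicate 1, however, they stood at 156 and 138 CPM, the former below every wild-type library. None of 4 tested conventional dendritic cell, 2 B cell, 2 plasma cell, 1 erythroid or 1 mast cell markers passed, no T and NK cell marker was abundant enough to be tested, and none of 4 tested interferon receptor genes passed. The part of such RNA in the gene results was not tested.

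**Figure D4:**
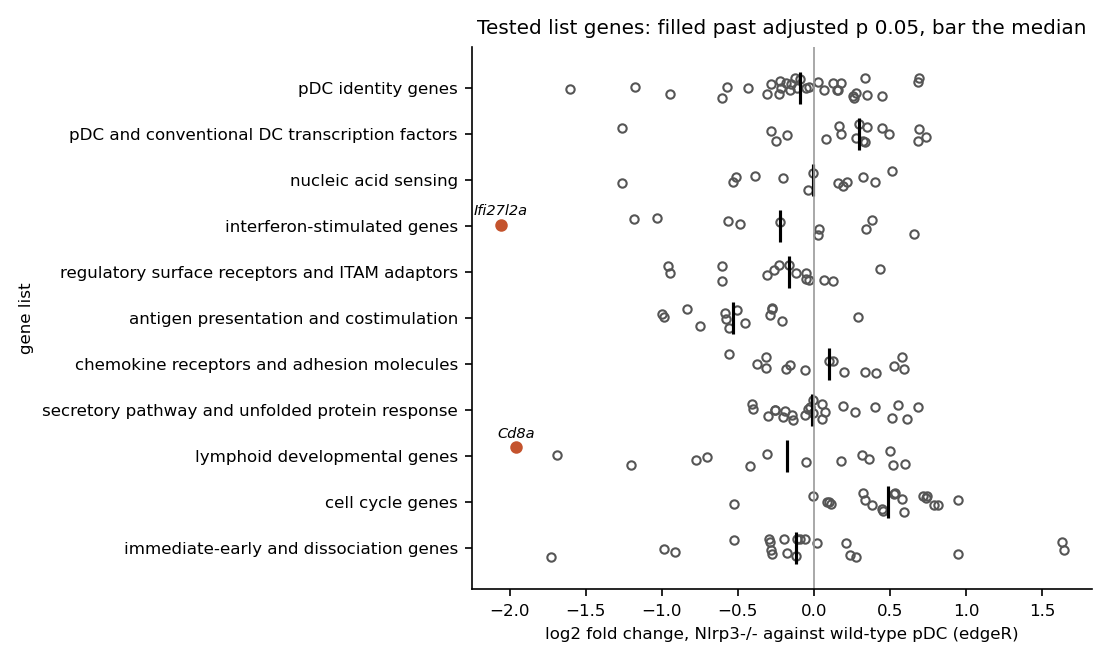
log2 fold change (Nlrp3-/- against wild-type pDC, edgeR) of each tested gene in 11 gene lists, with a bar at the list median and filled points for genes past an adjusted p of 0.05; Siglech and Bst2 are left out. Only Ifi27l2a and Cd8a are filled; the antigen presentation list lies mostly left of 0 and the cell cycle list mostly right of it.

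Since Ccr9 marks mature pDC and was not part of the gate, pDC that kept a Ccr9 UMI after thinning to 1000 UMIs (159 cells) were compared with those that kept none (250 cells) within each library. The split gave 26, 20 and 33 positive cells in wild-type and 10, 58 and 12 in Nlrp3-/- libraries. With the library as a block, 19 of 696 genes (2.73%) passed an edgeR adjusted p under 0.05, 4 higher (0.575%) and 15 lower (2.16%) in cells with Ccr9. The count was 9 without wild-type replicate 3 and 33 without Nlrp3-/- replicate 2, and DESeq2 called 0 genes (62 at an unadjusted p under 0.05). Levels in this comparison are CPM of thinned counts.

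Cd74 and the class II gene H2-Eb1 were higher in cells with Ccr9. Cd74 stood at 6588, 6011, 3976, 3806, 2297 and 2923 CPM with Ccr9 and at 4051, 4031, 2755, 1800, 2014 and 2238 CPM without it, from wild-type replicate 1 to Nlrp3-/- replicate 3. It was higher with Ccr9 in 6 of 6 libraries (log2 fold change 0.53 ± 0.102, SE; edgeR adjusted p = 0.000719). H2-Eb1, a class II beta chain, averaged 1164 CPM with Ccr9 and 503 CPM without it, again in 6 of 6 libraries (log2 fold change 1.00 ± 0.225, SE; edgeR adjusted p = 0.00464). Of 10 tested genes of the antigen presentation list these 2 passed, against 2.73% of all 696 genes, and 8 were positive, with a median of 0.31 against 0.01 over all genes. H2-Aa and H2-Ab1 had log2 fold changes of 0.44 and 0.49 (edgeR adjusted p = 0.119 and 0.244), and without the pDC that carried RNA of other cells both passed (edgeR adjusted p = 0.0476 and 0.0308). Malat1, a nuclear long noncoding RNA, was higher by 0.53 ± 0.0717 and Fth1, the ferritin heavy chain, by 0.24 ± 0.0670, each in 6 of 6 libraries (edgeR adjusted p = 4.11e-06 and 0.0392).

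Genes lower in cells with Ccr9 included Hmgb2, Tubb5, H2afz, H2afv, Hmgb1, Vim, Arhgdib and Stmn1. Hmgb2, a chromatin protein of proliferating cells, stood at 347, 100.2, 395, 100.2, 380 and 83.5 CPM with Ccr9 and at 797, 375, 1714, 933, 878 and 667 CPM without it. It was lower with Ccr9 in 6 of 6 libraries, by 1.70 ± 0.251 (SE) on the log2 scale (edgeR adjusted p = 1.12e-05). Tubb5, a beta tubulin, was lower by 1.09, the histone variants H2afz and H2afv by 0.69 and 1.21, Hmgb1 by 0.72, and the cytoskeletal genes Vim and Arhgdib by 1.07 each (all 6 of 6 libraries). On unthinned counts, which also re-drew the sets of cells with and without Ccr9, the log2 fold change of Vim was 0.021. Without the pDC that carried RNA of other cells Arhgdib missed the threshold (edgeR adjusted p = 0.0773). Stmn1, a regulator of microtubules, was lower by 1.57 in 5 of 6 libraries. None of the genes in the cell cycle list was abundant enough to be tested here.

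As a description chosen after these results, cycle-positive cells as defined above were counted in both sets. They made up 13 of 159 cells with Ccr9 (8.18%) and 53 of 250 cells without it (21.2%), and the share was lower with Ccr9 in each of the 6 libraries. Median depth before thinning was 4008 UMIs with Ccr9 and 4313 UMIs without it. However, most of the 35 pDC with more than 10000 UMIs lay in the set without Ccr9, and the Ccr9 comparison was not repeated without them. No test was made, and the same thinned counts define both sets.

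The remaining lower genes were Ptma, Rpl35 and 5 that are abundant in neutrophils, Camp, Ngp, S100a8, S100a9 and Cxcl2. S100a8 and S100a9 had log2 fold changes of -1.44 and -1.43, which became 0.82 and 0.21 without the pDC that carried RNA of other cells. Those pDC were defined in part by S100a8 and S100a9, so this change is not independent of the filter. Camp and Ngp could not be tested there, and Cxcl2 stayed lower, by 2.43. On unthinned counts, with the sets re-drawn to 310 cells with Ccr9 and 99 without, S100a8, S100a9 and Cxcl2 turned to 0.97, 1.08 and 0.67. Apart from the antigen presentation list and the neutrophil markers, where 4 of 6 tested passed, no list had a call. Without those cells Cd74, H2-Eb1, Malat1, Hmgb2, Tubb5 and Stmn1 still passed (edgeR adjusted p up to 0.00275). No identity gene passed among 22 tested; Siglech and Bst2, which chose the cells, had log2 fold changes of 0.36 and 0.21, and Tcf4, Irf8, Ly6c2 and Cox6a2 of 0.15, 0.20, 0.01 and 0.03.

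**Figure D5:**
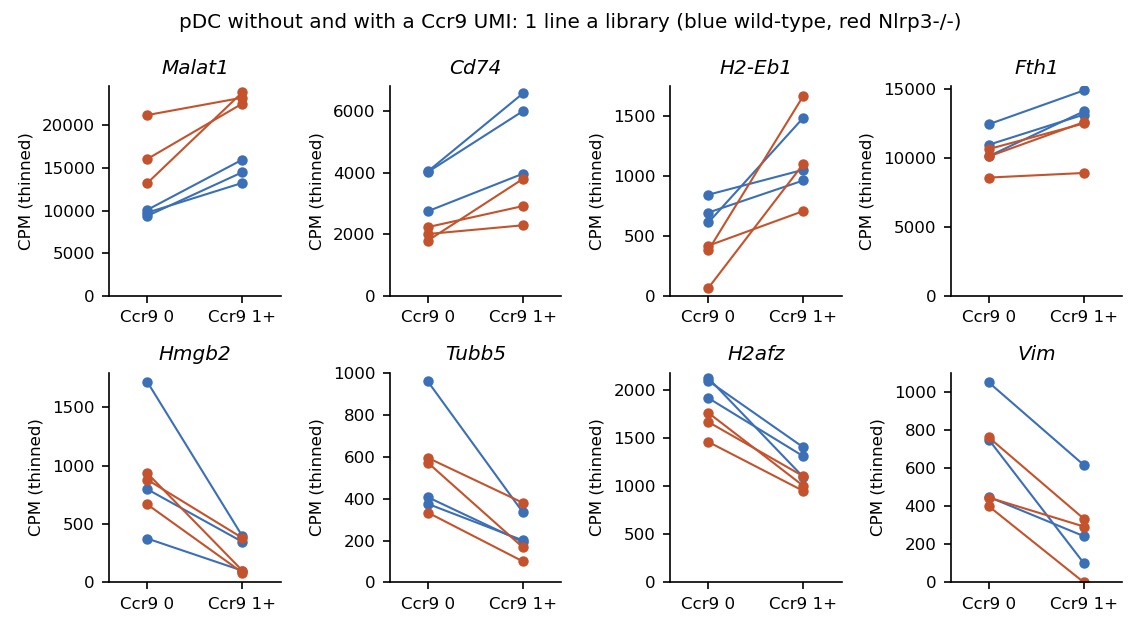
CPM of thinned counts of 8 genes in pDC without (Ccr9 0) and with (Ccr9 1+) a Ccr9 UMI, with 1 line for each of the 6 libraries, wild-type in blue and Nlrp3-/- in red. All 6 lines rise for Malat1, Cd74, H2-Eb1 and Fth1 and all 6 fall for Hmgb2, Tubb5, H2afz and Vim.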

How the data were processed

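Each of the 6 libraries was deposited as a matrix of raw UMI counts per gene and barcode, made by the authors from 10x Chromium 3′ v3 libraries aligned to mm10; the file headers name Cell Ranger 4 and the submitters' processing notes Cell Ranger 2.1.1. Samples were grouped by their titles. The members and gene lists were chosen with earlier results of these data known.

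The deposited counts were gated as described (python 3.11.15, numpy 2.4.6, scipy 1.17.1, pandas 2.3.3). UMIs of pDC were summed per library and tested with edgeR 4.0.16 (R 4.3.3, limma 3.58.1) by the quasi-likelihood test after its low-count filter, with Benjamini-Hochberg adjustment at 0.05 and Nlrp3-/- over wild-type as the fold. DESeq2 1.42.0 was an alternative. Cell features were compared after thinning to 1000 UMIs by two-sided exact permutation over libraries. Other alternatives changed the normalisation, low-count filter, Siglech threshold, depth, barcodes and libraries used. Intervals are exact binomial at 95% and cover counting error only.

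Named genes were up to 10 higher and 10 lower with the largest fold past the threshold, a mean of at least 20 CPM and groups that did not overlap (for the Ccr9 split, 1 direction in all 6 libraries), with sex-linked genes, Nlrp3, list members and gate genes; other genes past the threshold were named after their values were seen. For levels, genes were ranked by their lowest pDC library over the highest gate library at a mean of at least 50 CPM. Coordinates are GENCODE M21, which matched 32235 of 32285 identifiers. In simulated counts, 200 abundant genes were changed 4-fold in each comparison, and recovery was counted among those that passed the low-count filter. For the genotype comparison 93.5% were recovered (200 changed genes among 5016 tested). For the Ccr9 split it was 96.2% (133 among 774), with the other changed genes filtered out and not counted. In these simulations 6 and 4 unchanged genes were called. The simulations used a fixed dispersion and no difference between libraries beyond depth. Recovery of rarer or more variable genes was not measured. Some genes that entered the gates and lists are not reported here.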

Additional observations from a re-analysis of the deposited data

How the results depend on the processing

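The number of pDC, from 25 to 132 a library, limits precision, and genes of few UMIs can rest on 1 cell. The log2 ratio of the pDC share was -0.31 and ran from -1.77 to 0.15 when each library was left out, turning to 0.15 without Nlrp3-/- replicate 1 and 0.0069 without Nlrp3-/- replicate 3. The 31 genotype calls became 340 with no filter on low counts (31 of them shared with the main test), 92 with DESeq2 (12 shared), 12 with Siglech of at least 5 (10 shared), 13 on thinned counts (6 shared), 11 without barcodes holding RNA of other cells (11 shared), 70 without members over 10000 UMIs (27 shared; chosen after seeing the data), and 9 to 251 when each library was left out. The 19 Ccr9 calls became 31 with no filter (15 shared), 0 with DESeq2 and 9 to 33 when each library was left out. They became 50 (8 shared) on unthinned counts, which also re-drew the sets to 310 cells with Ccr9 and 99 without. DESeq2 gave no adjusted p for 13884 of 14915 genes in the genotype comparison. The cause of these changes was not tested.

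With the replicate number as a block, 78 genes passed between genotypes, among them all 31. Same-numbered libraries correlated at 0.10, -0.0051 and 0.030 in their deviations from the group means, not every library correlated best with its own number, and the labels give no shared animal or day, so the numbers were not taken as pairs.

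Among cell features (Nlrp3-/- minus wild-type, in percentage points), cycle-positive pDC moved from 0.79 to -8.31 unthinned and -1.40 without barcodes holding RNA of other cells, and ran from -3.30 to 5.36 when each library was left out. Cells with Ccr9 moved from 3.67 to -3.87 unthinned. Cells with Ly6d moved from -0.97 to 1.27 without barcodes holding RNA of other cells and ran from -3.60 to 0.469 with a library left out. Cells with Klra17 moved from -0.48 to 0.33 with Siglech of at least 5, to 0.26 without barcodes holding RNA of other cells, and ran from -1.51 to 1.23 with a library left out. In the Ccr9 split the log2 fold change turned to 0.021 for Vim, 0.97 for S100a8, 1.08 for S100a9 and 0.67 for Cxcl2 on unthinned counts with the sets re-drawn. It turned to 0.82 for S100a8 and 0.21 for S100a9 without barcodes holding RNA of other cells, which were defined in part by these 2 genes. Of 458 values for named genotype genes under alternatives, 338 kept their direction and side of the threshold and 120 kept only their direction; for the Ccr9 split this was 159 and 59 of 224, and the other 6 are those that turned above.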
